A study of Mus musculus with 18 samples.

Results

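The inhibitors of NF-κB, called IκB proteins, and the related protein Bcl3 were described here at the level of their transcripts in 3 lines of immortalised mouse embryonic fibroblasts. The members were the 6 genes Nfkbia, Nfkbib, Nfkbie, Nfkbiz, Nfkbid and Bcl3, taken by symbol from the 55536 genes of the deposited count table. One line lacked IKKβ, the kinase encoded by Ikbkb (IKK2 KO), another lacked RelA, the NF-κB subunit encoded by Rela (p65 KO), and the other was wild type (WT). Each line was left untreated or given TNFα, an inflammatory cytokine, at 10 ng/ml for 45 or 90 min, which made 9 groups of 2 libraries each. All 18 libraries came from cells grown in DMEM with serum and antibiotics. How the lines were made, and whether each is a single clone, is not given in the sources used here, so the deleted gene and any other difference between the lines cannot be told apart. The labels do not say whether the 2 libraries of a group came from separate cultures, and p-values therefore measure only the spread between these libraries, which may be technical.

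In resting cells, IκB proteins hold NF-κB dimers inactive in the cytoplasm through their ankyrin repeats. TNF activates the IκB kinase, whose catalytic subunit IKKβ marks IκBα, IκBβ and IκBε for ubiquitination and breakdown, and the freed dimers then switch on target genes that include several IκB genes, so that the inhibitors are made again in a feedback loop. IκBζ, IκBNS and Bcl3 are the atypical members: they are found mainly in the nucleus, bind dimers of the p50 or p52 subunits and can raise or lower transcription of selected targets.

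Windows of 300 bases, running from 250 bases before to 50 bases after each transcription start in the RefSeq tables of build GRCm38.p6, were found for 5 of the 6 members, and Nfkbiz had no entry. They are shown because the members differed in their response to TNF and NF-κB dimers recognise short κB motifs. Both strands were searched for the κB consensus and for the shorter GGNNTTTCC, and capitals mark the matches. Positions count from the start, with negative values before it.

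Nfkbia, chr12:55492598-55492897, minus strand: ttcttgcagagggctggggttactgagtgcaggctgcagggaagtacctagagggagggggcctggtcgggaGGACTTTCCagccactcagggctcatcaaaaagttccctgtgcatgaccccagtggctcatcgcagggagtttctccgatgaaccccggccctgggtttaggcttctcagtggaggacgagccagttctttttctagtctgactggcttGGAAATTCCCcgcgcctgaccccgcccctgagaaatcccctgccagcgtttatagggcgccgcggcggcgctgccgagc
Nfkbie, chr17:45555450-45555749, plus strand: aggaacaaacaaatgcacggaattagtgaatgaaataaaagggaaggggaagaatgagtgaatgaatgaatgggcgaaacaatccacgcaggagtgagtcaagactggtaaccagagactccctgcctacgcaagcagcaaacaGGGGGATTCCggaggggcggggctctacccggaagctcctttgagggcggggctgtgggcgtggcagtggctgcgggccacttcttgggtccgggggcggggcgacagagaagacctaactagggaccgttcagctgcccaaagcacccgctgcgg
Bcl3, chr7:19822706-19823005, minus strand: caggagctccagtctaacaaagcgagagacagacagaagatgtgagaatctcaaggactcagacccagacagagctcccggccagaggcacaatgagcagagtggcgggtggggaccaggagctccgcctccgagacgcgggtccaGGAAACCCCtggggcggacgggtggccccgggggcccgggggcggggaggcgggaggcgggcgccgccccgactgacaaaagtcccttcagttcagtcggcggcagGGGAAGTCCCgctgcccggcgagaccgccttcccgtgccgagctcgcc
Nfkbid, the second of 3 RefSeq starts, chr7:30422156-30422455, plus strand: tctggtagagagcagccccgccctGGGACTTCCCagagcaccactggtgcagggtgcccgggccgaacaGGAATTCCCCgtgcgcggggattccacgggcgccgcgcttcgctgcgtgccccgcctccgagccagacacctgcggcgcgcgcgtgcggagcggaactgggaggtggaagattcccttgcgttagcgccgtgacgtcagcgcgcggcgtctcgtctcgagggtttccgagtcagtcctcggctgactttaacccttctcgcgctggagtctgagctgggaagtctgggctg
Nfkbib, chr7:28766595-28766894, minus strand: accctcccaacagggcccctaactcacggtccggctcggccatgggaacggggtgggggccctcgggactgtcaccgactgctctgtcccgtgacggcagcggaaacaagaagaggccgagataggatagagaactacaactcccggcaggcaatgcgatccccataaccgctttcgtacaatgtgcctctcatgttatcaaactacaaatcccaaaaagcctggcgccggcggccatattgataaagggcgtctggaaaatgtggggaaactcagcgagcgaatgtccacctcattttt

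The Nfkbia window held GGACTTTCC beginning at position -178 and GGAAATTCCC beginning at position -29, the second of which matched both motifs on the strand opposite to the gene, where the 2 matches overlap. The Nfkbie window held a consensus match, GGGGGATTCC, beginning at position -106. The Bcl3 window held GGGAAGTCCC at position 3, which matched the consensus on both strands, and a match to GGNNTTTCC on the opposite strand at position -104. In the second Nfkbid window the consensus was matched at 2 positions, -226 (on both strands) and -181, and the windows at the other 2 Nfkbid starts held no match. The Nfkbib window held no match. Of all 32851 windows of this length, 8.46% held the consensus, 5.82% held GGNNTTTCC and 12.8% held either. A match describes these letters only, and binding was not measured.

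The libraries held 16708346 to 23469439 counts, with 21147 to 23017 genes counted in each. Levels are given in CPM, the counts scaled to a common library size. Rela stood at 5.25 and 6.11 CPM in untreated p65 KO cells, against 63.2 and 64.5 CPM in untreated WT cells, a log2 difference of -3.49 ± 0.07 (SE). Ikbkb averaged 43.4 ± 0.351 CPM in untreated IKK2 KO cells and 59.9 ± 0.76 CPM in untreated WT cells (SD, n = 2 each). Both p65 KO libraries without TNF stood at 42.7 CPM for this gene. A level below WT was therefore not particular to IKK2 KO cells. Counts over a whole gene need not fall when part of it is deleted, so these levels do not check the IKK2 KO label. Of 10 fibroblast markers, 9, 8 and 8 averaged at least 1 CPM in IKK2 KO, p65 KO and WT cells. Their summed level was 11000 to 11400 CPM in IKK2 KO, 4740 to 4880 CPM in p65 KO and 11000 to 11400 CPM in WT libraries. Thy1 averaged 27.7 CPM in IKK2 KO cells but under 0.01 CPM in p65 KO and WT cells, and Postn stayed at or under 0.317 CPM in every library. Sums over the epithelial, endothelial, myeloid, muscle and adipocyte markers reached at most 3.23 CPM. Of 5 neural markers, 2, 3 and 3 averaged at least 1 CPM, with sums of 16.9 to 31.9 CPM in IKK2 KO, 191 to 209 CPM in p65 KO and 89.4 to 115 CPM in WT libraries, mostly from Sox2, and Snap25 was at or near 0 throughout. The part of these line differences in the values below was not tested, and in bulk RNA fewer expressing cells and less RNA per cell cannot be told apart.

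All 6 members rose in WT cells with TNF, at 45 min and at 90 min, by the robust quasi-likelihood test of edgeR with Benjamini-Hochberg adjustment over 16322 genes (threshold 0.05). DESeq2 called 5 at 90 min, without Nfkbid, whose adjusted p by edgeR was 0.0499. Of all genes tested, 5.73% rose at 45 min and 5.81% at 90 min. In IKK2 KO cells 2 of 6 members rose at 45 min, Nfkbia and Nfkbiz, against 3.33% of all genes. In p65 KO cells 1 of 6 rose at 45 min, Nfkbia, against 1.17% of all genes. The median log2 change of the members at 45 min was 0.57 in IKK2 KO cells and 0.12 in p65 KO cells (5 members with counts each), and 2.99 in WT cells (6 members), beside medians over all genes of 0.00, 0.00 and 0.01.

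**Figure D1:**
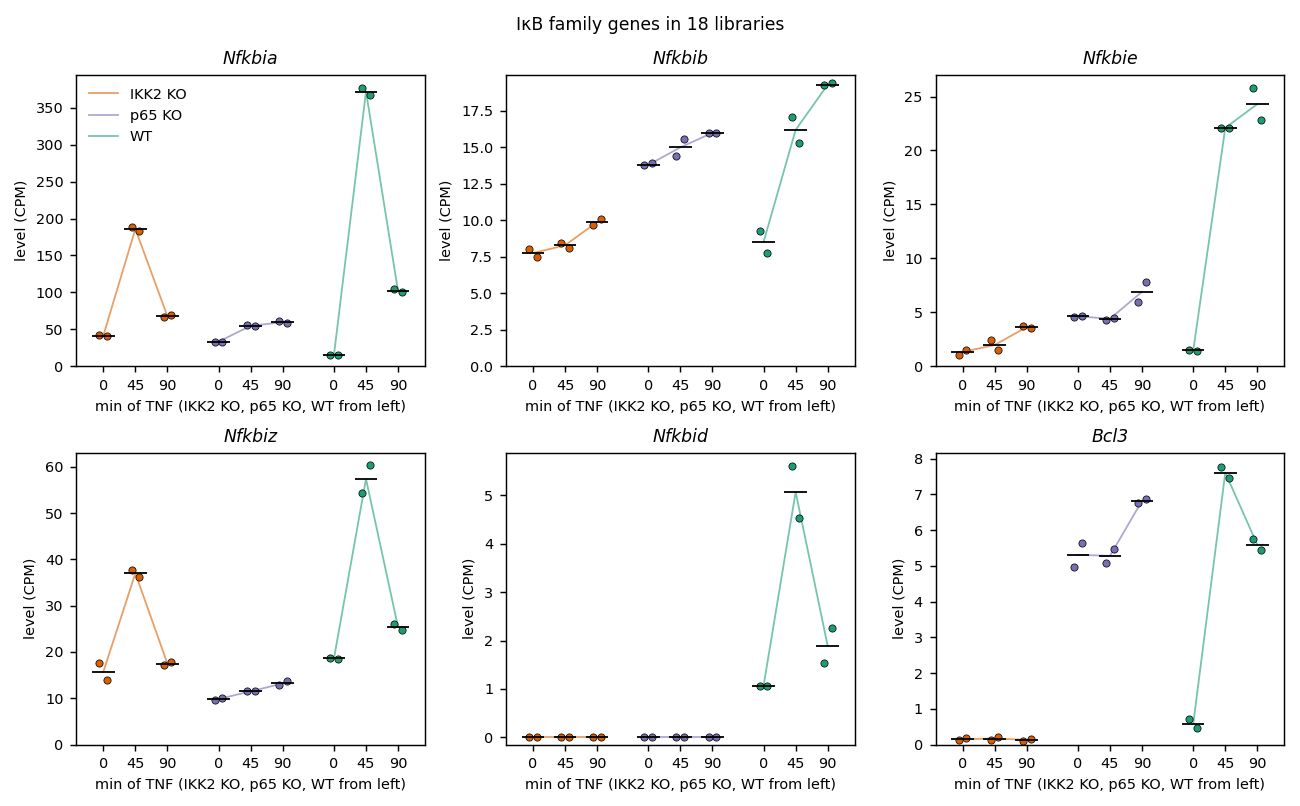
Level of each IκB family gene in CPM (y axis, linear, 1 scale per gene) against minutes of TNF (x axis), for IKK2 KO, p65 KO and WT cells from left to right; points are single libraries, bars the means of 2, and lines join the means. Nfkbia peaked at 45 min in IKK2 KO (189 and 183 CPM) and WT cells (377 and 368 CPM), and Nfkbid was at 0 in all 12 knock-out libraries.

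Nfkbia (ENSMUSG00000021025, chr12:55489410-55492647, minus strand) encodes IκBα, the inhibitor that is degraded and remade fastest and a classical NF-κB target. In IKK2 KO cells it had 42.0 and 40.8 CPM untreated, 189 and 183 CPM at 45 min and 66.3 and 69.6 CPM at 90 min. The p65 KO libraries had 33.5 and 33.1 CPM untreated, 55.5 and 54.2 CPM at 45 min and 61.2 and 58.1 CPM at 90 min. The WT libraries had 15.6 and 15.1 CPM untreated, 377 and 368 CPM at 45 min and 105 and 100 CPM at 90 min. WT cells thus had the lowest untreated level and the highest level at both TNF times, and no 2 neighbours among the 9 groups overlapped: the order from the top was WT at 45 min, IKK2 KO at 45 min, WT, IKK2 KO and p65 KO at 90 min, p65 KO at 45 min, and untreated IKK2 KO, p65 KO and WT cells. With TNF at 45 min it rose 4.49-fold in IKK2 KO cells (log2 change 2.17 ± 0.04, SE; edgeR adjusted p = 1.8e-35). The rise was 1.64-fold in p65 KO cells (0.72 ± 0.05, adjusted p = 6.4e-15). In WT cells the rise was 24.3-fold (4.60 ± 0.04, adjusted p = 3.3e-48).

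The later course of Nfkbia differed between the lines. From 45 to 90 min of TNF it fell in IKK2 KO cells (log2 change -1.45 ± 0.04, adjusted p = 1.5e-30) and in WT cells (-1.86 ± 0.03, adjusted p = 7.5e-38). The p65 KO change was 0.12 ± 0.04 (adjusted p = 0.12). At 90 min it was still above untreated cells by 0.71 ± 0.05 in IKK2 KO, 0.84 ± 0.05 in p65 KO and 2.74 ± 0.05 in WT cells (edgeR adjusted p = 4.5e-15, 4.7e-18 and 7.2e-36). The level of Nfkbia at 45 min in IKK2 KO cells was 49.8% of that in WT cells, and in p65 KO cells it was 14.7%. The differences of the responses themselves were tested as well: the log2 response at 45 min was smaller than in WT in IKK2 KO cells (-2.44 ± 0.07, adjusted p = 1.2e-28) and in p65 KO cells (-3.88 ± 0.07, adjusted p = 7.1e-36). Between the knock-outs, the response at 45 min was larger in IKK2 KO than in p65 KO cells by 1.45 ± 0.07 (adjusted p = 9.1e-21). At 90 min that difference was -0.13 ± 0.07 (adjusted p = 0.48).

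Nfkbib (ENSMUSG00000030595, chr7:28758251-28767512, minus strand) encodes IκBβ, an inhibitor whose gene is known for little or slow response to TNF. The IKK2 KO libraries had 8.04 and 7.49 CPM untreated, 8.45 and 8.13 CPM at 45 min and 9.67 and 10.1 CPM at 90 min. p65 KO cells held 13.8 and 13.9 CPM untreated, 14.4 and 15.6 CPM at 45 min, and 16 CPM in both libraries at 90 min. WT cells held 9.28 and 7.78 CPM untreated, 17.1 and 15.3 CPM at 45 min and 19.3 and 19.4 CPM at 90 min. In all 3 lines every untreated library lay below every library of the same line with TNF, with the widest gap in WT cells, and in the order of the 9 groups WT at 45 min overlapped p65 KO at 90 min, and untreated WT overlapped IKK2 KO at 45 min.

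With TNF, Nfkbib rose in WT cells by 0.94 ± 0.09 on the log2 scale at 45 min (edgeR adjusted p = 4.5e-11) and by 1.19 ± 0.09 at 90 min (adjusted p = 1.3e-14). At 45 min the values were 0.09 ± 0.12 in IKK2 KO cells (adjusted p = 0.79) and 0.12 ± 0.08 in p65 KO cells (adjusted p = 0.56). At 90 min they were 0.34 ± 0.11 in IKK2 KO cells (adjusted p = 0.071) and 0.22 ± 0.08 in p65 KO cells (adjusted p = 0.086). The response at 45 min was smaller than in WT in IKK2 KO cells (-0.85 ± 0.15, adjusted p = 8.5e-05) and in p65 KO cells (-0.82 ± 0.12, adjusted p = 2.9e-06). Nfkbib shares 42 exon bases with Sirt2 and 314 with Ccer2 on the opposite strand. The strand setting of the counting is not given, so reads from those stretches cannot be assigned to a single gene. Ccer2 had at most 1 count in any library, while Sirt2 had 324 to 790.33 counts.

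Nfkbie (ENSMUSG00000023947, chr17:45555703-45563169, plus strand) encodes IκBε, an inhibitor remade later than IκBα in fibroblasts. Its levels in IKK2 KO cells were 1.08 and 1.55 CPM untreated, 2.42 and 1.51 CPM at 45 min and 3.73 and 3.54 CPM at 90 min. Levels in p65 KO cells were 4.57 and 4.69 CPM untreated, 4.33 and 4.47 CPM at 45 min and 5.99 and 7.82 CPM at 90 min. Levels in WT cells were 1.52 and 1.44 CPM untreated, 22.1 CPM in both libraries at 45 min and 25.8 and 22.8 CPM at 90 min. All 4 WT libraries with TNF lay above every other library, while IKK2 KO at 45 min overlapped untreated IKK2 KO and untreated WT cells.

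In WT cells Nfkbie rose 15.0-fold at 45 min (3.90 ± 0.14, edgeR adjusted p = 2.2e-25) and 16.5-fold at 90 min (4.04 ± 0.14, adjusted p = 3e-26). Between the TNF times in WT cells its log2 change was 0.14 ± 0.08 (adjusted p = 0.29), beside -1.86 ± 0.03 for Nfkbia. At 45 min the values were 0.57 ± 0.29 in IKK2 KO cells (adjusted p = 0.26) and -0.07 ± 0.15 in p65 KO cells (adjusted p = 0.92). At 90 min it rose by 1.47 ± 0.24 in IKK2 KO cells (adjusted p = 3.2e-05) and by 0.57 ± 0.13 in p65 KO cells (adjusted p = 0.0044). The p65 KO value rested on library b at 90 min: without it the log2 change was 0.37 (adjusted p = 0.24), and without library a or b of untreated p65 KO cells it was 0.55 or 0.59 (adjusted p = 0.0504 for each). The response at 45 min was smaller than in WT in IKK2 KO cells (-3.33 ± 0.37, adjusted p = 5.2e-09) and in p65 KO cells (-3.97 ± 0.23, adjusted p = 6.1e-18). At 90 min the differences from WT were -2.57 ± 0.35 in IKK2 KO cells (adjusted p = 1.1e-06) and -3.47 ± 0.22 in p65 KO cells (adjusted p = 2.1e-16).

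**Figure D2:**
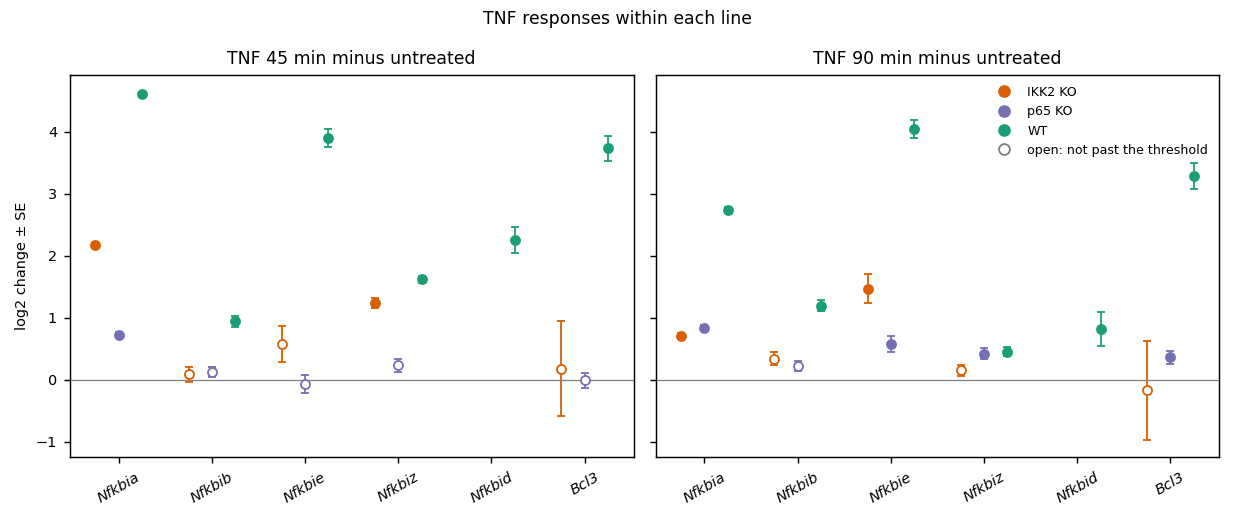
Log2 change with TNF against untreated cells of the same line (y axis, ± SE) for each gene at 45 and 90 min (x axis), in IKK2 KO, p65 KO and WT cells; Nfkbid is drawn for WT cells alone because it had no counts in the knock-outs. The WT changes at 45 min run between 0.94 for Nfkbib and 4.60 for Nfkbia.

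Nfkbiz (ENSMUSG00000035356, chr16:55811375-55838899, minus strand) encodes IκBζ, which in mouse macrophages is induced early and is needed for a later set of genes that includes Il6 and Lcn2. The IKK2 KO libraries had 17.6 and 13.9 CPM untreated, 37.8 and 36.2 CPM at 45 min and 17.2 and 17.8 CPM at 90 min. The p65 KO libraries had 9.63 and 10.1 CPM untreated, 11.5 and 11.6 CPM at 45 min and 12.8 and 13.7 CPM at 90 min. The WT libraries had 18.8 and 18.5 CPM untreated, 54.4 and 60.5 CPM at 45 min and 26.0 and 24.7 CPM at 90 min. IKK2 KO and WT cells shared a peak at 45 min, whereas every p65 KO library lay below every library of the other lines.

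At 45 min of TNF Nfkbiz rose by 1.23 ± 0.08 on the log2 scale in IKK2 KO cells (edgeR adjusted p = 2.1e-16) and by 1.62 ± 0.06 in WT cells (adjusted p = 4.1e-24). The p65 KO value was 0.23 ± 0.10 (adjusted p = 0.31). Between 45 and 90 min it fell in IKK2 KO cells (-1.08 ± 0.07, adjusted p = 1.5e-15) and in WT cells (-1.17 ± 0.06, adjusted p = 1.8e-19). At 90 min the change against untreated cells was 0.15 ± 0.09 in IKK2 KO (adjusted p = 0.50), 0.42 ± 0.09 in p65 KO (adjusted p = 0.0027) and 0.45 ± 0.07 in WT cells (adjusted p = 1.9e-05). Without library b of p65 KO at 90 min, the p65 KO value was 0.37 (adjusted p = 0.063). The response at 45 min was smaller in p65 KO than in WT cells (-1.39 ± 0.12, adjusted p = 4.2e-12) and larger in IKK2 KO than in p65 KO cells (1.0 ± 0.13, adjusted p = 2.5e-07). The difference between IKK2 KO and WT was -0.39 ± 0.11 (adjusted p = 0.016), and it did not pass with DESeq2 (adjusted p = 0.15) or without library a of untreated IKK2 KO cells (-0.21, adjusted p = 0.55), library b of untreated WT cells, or library b of IKK2 KO or of WT cells at 45 min (adjusted p = 0.072 to 0.10). Of the IκBζ-dependent genes Il6, Lcn2, Il12b and Csf2, none passed the filter on low counts, and the highest value in any library was 0.409 CPM, for Il6.

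Nfkbid (ENSMUSG00000036931, chr7:30421732-30428746, plus strand) encodes IκBNS, a nuclear partner of p50. No read was counted for it in any of the 6 IKK2 KO or 6 p65 KO libraries, where 3 counts would correspond to 0.117 to 0.186 CPM. WT cells held 1.07 CPM in both untreated libraries (21 and 26 counts), 5.60 and 4.54 CPM at 45 min (113 and 78 counts) and 1.53 and 2.25 CPM at 90 min (31 and 43 counts). The 6 WT libraries therefore all lay above the limit that a count of 0 allows, and within WT cells 45 min lay above 90 min and 90 min above untreated cells. In WT cells the rise was 4.79-fold at 45 min (2.25 ± 0.21, edgeR adjusted p = 1e-10) and 1.77-fold at 90 min (0.82 ± 0.27, adjusted p = 0.0499). The call at 90 min was lost with DESeq2 (adjusted p = 0.44) and without library b of WT at 90 min (0.52, adjusted p = 0.52), and its adjusted p lay between 0.0502 and 0.19 when either untreated WT library, library a of WT at 45 min or any of 8 knock-out libraries was left out. Untreated, Nfkbid was at least 12-fold lower in IKK2 KO than in WT cells (adjusted p = 6.4e-08) and at least 16.3-fold lower in p65 KO than in WT cells (adjusted p = 4.4e-09), with 3 counts over the group as the floor. Nfkbid passed the filter on low counts only through the WT libraries, so these adjusted p-values add no evidence beyond the counts. At 45 min it was at least 60.5-fold lower in IKK2 KO and at least 76.5-fold lower in p65 KO than in WT cells. These limits and floors cover counting error only.

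The absence of Nfkbid counts in both knock-out lines was also seen at a neighbouring gene, which was picked out after its values were seen. Aplp1, a homologue of the amyloid precursor gene lying 6.2 kb away, was at 0 in 11 of 12 knock-out libraries with 1 count in the other one, against 62 to 88 counts in each WT library. The other 4 genes within 100 kb that averaged at least 1 CPM in an untreated line were Sdhaf1, Lrfn3, Rps12-ps4 and Arhgap33. Each had at least 21 counts in every knock-out library. Untreated, in IKK2 KO, p65 KO and WT cells, Lrfn3 averaged 3.36, 2.95 and 6.89 CPM and Arhgap33 2.05, 1.83 and 4.96 CPM. Sdhaf1 averaged 1.57, 5.25 and 5.37 CPM and Rps12-ps4 5.36, 2.84 and 5.29 CPM, in the same order. Whether the stretch with Nfkbid and Aplp1 is present in the genomes of the knock-out lines was not tested.

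Bcl3 (ENSMUSG00000053175, chr7:19808462-19822770, minus strand) encodes a nuclear partner of p50 and p52 dimers that can activate transcription. In IKK2 KO cells it had 0.114 and 0.186 CPM untreated, 0.118 and 0.215 CPM at 45 min and 0.105 and 0.158 CPM at 90 min, which came from 2 to 4 counts per library. p65 KO cells held 4.98 and 5.65 CPM untreated, 5.08 and 5.48 CPM at 45 min and 6.77 and 6.88 CPM at 90 min. In WT cells it had 0.71 and 0.451 CPM untreated, 7.78 and 7.45 CPM at 45 min and 5.74 and 5.44 CPM at 90 min. Untreated p65 KO cells overlapped WT cells at 90 min of TNF, and the 3 IKK2 KO groups overlapped each other below every other library.

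Bcl3 rose 13.4-fold in WT cells at 45 min (3.73 ± 0.20, edgeR adjusted p = 2.1e-19) and 9.87-fold at 90 min (3.29 ± 0.21, adjusted p = 2.6e-16). In p65 KO cells the values were -0.01 ± 0.12 at 45 min (adjusted p = 1.0) and 0.36 ± 0.11 at 90 min (adjusted p = 0.049). The IKK2 KO values were 0.18 ± 0.76 (adjusted p = 0.97) and -0.17 ± 0.80 (adjusted p = 0.98), and both rest on 2 to 4 counts per library. The p65 KO call at 90 min was lost when any of the 4 libraries compared was left out, with the lowest value without library a of untreated p65 KO cells (0.27, adjusted p = 0.36). It was also lost, at adjusted p from 0.050 to 0.057, when any of 10 libraries outside that comparison was left out. Untreated, Bcl3 was 9.40-fold higher in p65 KO than in WT cells (3.22 ± 0.21, adjusted p = 8.2e-18) and 3.82-fold lower in IKK2 KO than in WT cells (-1.89 ± 0.55, adjusted p = 0.0029; adjusted p = 0.053 without library a of untreated IKK2 KO cells). At 45 min of TNF the response was smaller than in WT in p65 KO cells (-3.74 ± 0.25, adjusted p = 7.7e-16) and in IKK2 KO cells (-3.55 ± 0.93, adjusted p = 0.014). The IKK2 KO difference did not pass without library b of untreated IKK2 KO cells (-3.19, adjusted p = 0.31), library a of untreated IKK2 KO cells (-3.87, adjusted p = 0.064) or library a of IKK2 KO at 45 min (-3.21, adjusted p = 0.053). At 90 min the response was also smaller in IKK2 KO than in WT cells (-3.45 ± 0.94, adjusted p = 0.038). That call was lost without library a or b of untreated IKK2 KO cells (adjusted p = 0.12 and 0.45), library a or b of IKK2 KO at 90 min (adjusted p = 0.14 and 0.061), library b of untreated WT cells (adjusted p = 0.091) or library a of WT at 90 min (adjusted p = 0.053), with log2 values between -3.76 and -3.09. Tomm40, Nectin2 and Pvr, the genes within 100 kb of Bcl3 at or above 1 CPM, were counted in all 18 libraries. Bcl3 shares 161 exon bases with Gm16175 on the opposite strand, which had at most 1 count in any library.

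Untreated cells of the 3 lines differed in most genes, and the members' differences are read against that. Between p65 KO and WT, 4 members were higher and 2 lower in p65 KO, where 39.8% and 41.1% of all genes were. Between IKK2 KO and WT, 1 was higher and 3 lower in IKK2 KO, where 35.9% and 38.4% of all genes were. Nfkbid, kept by the filter through WT cells alone, was among the lower members in both knock-outs. Between IKK2 KO and p65 KO, 2 were higher and 3 lower in IKK2 KO, where 35.5% and 36.9% of all genes were. Nfkbia was higher in untreated IKK2 KO than in WT cells by 1.43 ± 0.06 on the log2 scale (edgeR adjusted p = 1.3e-23) and higher in p65 KO than in WT cells by 1.12 ± 0.06 (adjusted p = 3.6e-20). Nfkbib and Nfkbie were higher in p65 KO than in WT cells by 0.71 ± 0.09 (adjusted p = 3.6e-09) and 1.65 ± 0.20 (adjusted p = 6.1e-10). Their values in IKK2 KO against WT cells were -0.12 ± 0.11 (adjusted p = 0.34) and -0.17 ± 0.29 (adjusted p = 0.60). Nfkbiz was lower in p65 KO than in WT cells (-0.92 ± 0.09, adjusted p = 1.9e-12), and its value in IKK2 KO against WT cells, -0.24 ± 0.09 (adjusted p = 0.013), was -0.08 (adjusted p = 0.46) without library b of untreated IKK2 KO cells.

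Responses to TNF were smaller than in WT cells for 5 of 6 members in IKK2 KO and for 5 of 6 in p65 KO at 45 min, the same 5 genes, Nfkbid having no counts to give a response in either. Of all genes tested, 2.82% had a lower response in IKK2 KO and 3.61% in p65 KO than in WT. Both counts share the WT libraries and are not independent. DESeq2 called 5 in p65 KO but 4 in IKK2 KO, without Nfkbiz. The IKK2 KO calls of Nfkbiz and Bcl3 were each lost in some fits with 1 library left out, as given above. At 90 min the response was smaller for 4 members in each knock-out, Nfkbia, Nfkbib, Nfkbie and Bcl3, against 1.52% of all genes in IKK2 KO and 3.47% in p65 KO. Responses start from unlike untreated levels, so a smaller response need not be a lower level. In that order, levels at 90 min were 66.3%, 51.1%, 14.9% and 2.35% of WT in IKK2 KO cells. In p65 KO cells they were 58.2%, 83.0%, 28.3% and 122% of WT. The IKK2 KO count was 3 without Bcl3, whose call was lost when any of 6 single libraries was left out. Nfkbiz at 90 min gave -0.30 ± 0.12 in IKK2 KO (adjusted p = 0.24; -0.45, adjusted p = 0.044, without library b of untreated IKK2 KO cells) and -0.02 ± 0.12 in p65 KO (edgeR adjusted p = 0.98). Between the knock-outs, 2 members responded more in IKK2 KO than in p65 KO at 45 min, Nfkbia and Nfkbiz, against 2.24% of all genes. At 90 min edgeR called none of the 6, against 1.67% of all genes, with 2 at an unadjusted p under 0.05 and 0 called by DESeq2, and it called Nfkbie when library b of p65 KO at 90 min was left out (1.10, adjusted p = 0.039).

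**Figure D3:**
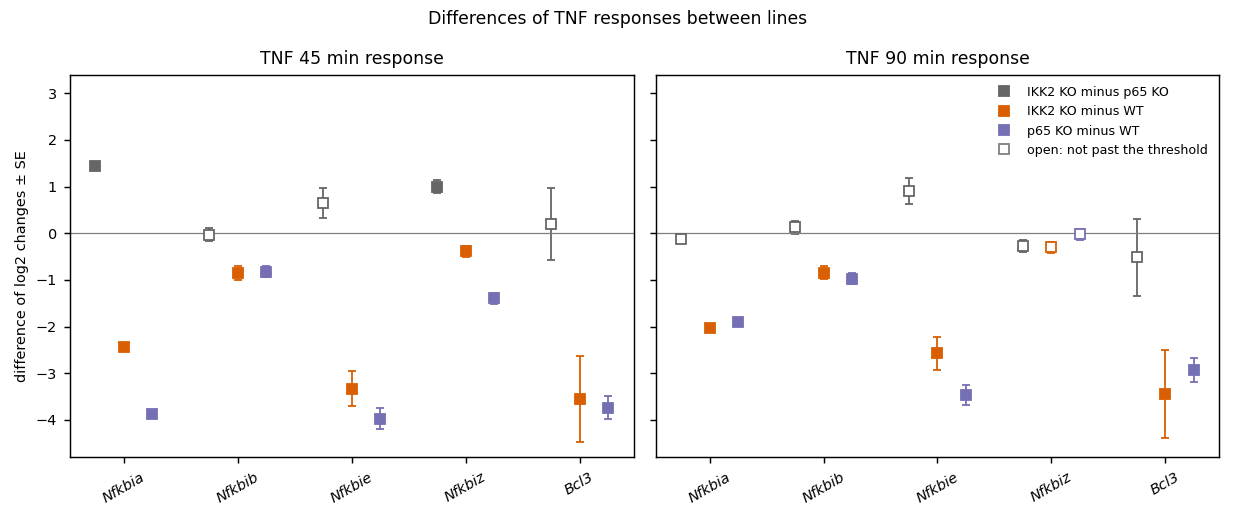
Difference of log2 TNF responses between lines (y axis, ± SE) for 5 members at 45 and 90 min, with filled squares past an adjusted p of 0.05 and open squares not past it. Nfkbia and Nfkbiz lie above 0 in IKK2 KO minus p65 KO at 45 min (1.45 and 1.0), and at 90 min no gene passes in that contrast.

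Between the TNF times, 4 members fell and 1 rose in WT cells, against 6.22% and 8.08% of all genes. Those that fell were Nfkbia, Nfkbiz, Nfkbid (-1.44 ± 0.19, edgeR adjusted p = 3.2e-07) and Bcl3 (-0.45 ± 0.12, adjusted p = 0.0075), and Nfkbib rose (0.25 ± 0.08, adjusted p = 0.026). DESeq2 called neither Bcl3 (adjusted p = 0.20) nor Nfkbib (adjusted p = 0.23). The Bcl3 call was lost without library b of WT at 90 min (adjusted p = 0.076) or library a at 45 min (adjusted p = 0.086), and that of Nfkbib without either library at 90 min (adjusted p = 0.11) or library b at 45 min (adjusted p = 0.29). In IKK2 KO cells Nfkbia and Nfkbiz fell and Nfkbie rose (0.90 ± 0.22, adjusted p = 0.0021), against 5.59% lower and 10.1% higher of all genes. Without library b of IKK2 KO at 45 min the Nfkbie value was 0.59 (adjusted p = 0.14). In p65 KO cells Nfkbie alone passed (0.64 ± 0.14, adjusted p = 0.003), against 2.27% of all genes higher, and not without library b at 90 min (0.44, adjusted p = 0.23) or library a or b at 45 min (adjusted p = 0.059 and 0.062). Against untreated cells at 90 min, 2 of 6 members were higher in IKK2 KO (Nfkbia and Nfkbie), where 3.36% of all genes were. In p65 KO cells 4 of 6 were higher (Nfkbia, Nfkbie, Nfkbiz and Bcl3), where 4.06% of all genes were, and the count was 1 when library b of p65 KO at 90 min was left out and 2 without either untreated library.

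To compare levels between the genes, counts were also divided by exon length (RPKM, which adds exon length to the scaling by library size). Nfkbia was the most abundant of the 6 in every group, at 9.54 ± 0.19 RPKM in untreated WT cells and 231 ± 3.99 RPKM in WT cells at 45 min (SD, n = 2 each). The highest group means of the others were 8.91 RPKM for Nfkbib, 7.98 RPKM for Nfkbie, 11.4 RPKM for Nfkbiz, 2.16 RPKM for Nfkbid and 3.08 RPKM for Bcl3, all in WT cells with TNF. The summed level of the classical inhibitors Nfkbia, Nfkbib and Nfkbie was 29.7 ± 0.578, 120 ± 3.19 and 47.9 ± 1.53 RPKM at 0, 45 and 90 min in IKK2 KO cells. In p65 KO cells it was 28.6 ± 0.104, 42.4 ± 0.15 and 46.7 ± 0.923 RPKM. In WT cells it was 14.0 ± 0.70, 246 ± 4.6 and 80.5 ± 2.73 RPKM. Both knock-outs therefore held more classical IκB transcript than WT cells when untreated and less at both TNF times, with no overlap of libraries.

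The make-up of that sum moved as well. Nfkbia held 86.5%, 96.3% and 88.0% of it at 0, 45 and 90 min in IKK2 KO cells, 72.4%, 80.3% and 79.3% in p65 KO cells, and 68.4%, 94.0% and 79.0% in WT cells. Nfkbie held 1.46%, 0.536% and 2.49% in IKK2 KO cells, 5.32%, 3.41% and 4.86% in p65 KO cells, and 3.48%, 2.95% and 9.90% in WT cells. The WT share of Nfkbie at 90 min, 10.3% and 9.51% in the 2 libraries, was above every other library. These are shares of transcripts, and protein was not measured.

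**Figure D4:**
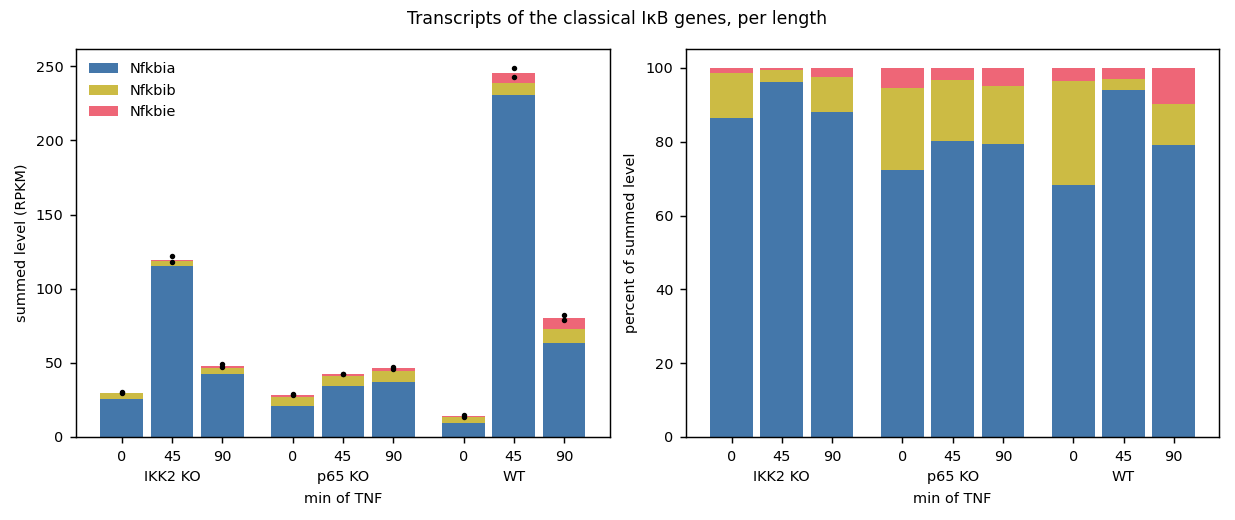
Summed level of Nfkbia, Nfkbib and Nfkbie transcripts in RPKM (left, y axis, with points for single libraries) and the percent of each in the sum (right, y axis), at 0, 45 and 90 min of TNF in IKK2 KO, p65 KO and WT cells; bars are means of 2 libraries. The WT sum reaches 246 RPKM at 45 min, of which Nfkbia is 94.0%.

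The other parts of the pathway were read from lists chosen with earlier results known. Of the 5 NF-κB subunit genes, 3 rose at 45 min in IKK2 KO cells, 0 in p65 KO cells and 5 in WT cells, against 3.33%, 1.17% and 5.73% of all genes. The medians of their log2 changes were 0.30, 0.06 and 1.29, beside 0.00, 0.00 and 0.01 over all genes. For the count of 0 in p65 KO cells by edgeR, 0 had an unadjusted p under 0.05 and DESeq2 called 0. At 90 min 5, 4 and 5 rose, against 3.36%, 4.06% and 5.81% of all genes, with medians of 0.75, 0.18 and 1.19 beside 0.00 over all genes in each line. Rela, the gene that p65 KO cells lack, is among the 5. It was the subunit gene not called there at 90 min (0.18 ± 0.11, edgeR adjusted p = 0.45). Relb, whose product pairs with p52 and p50, rose at 90 min by 1.26 ± 0.07 in IKK2 KO cells, 0.40 ± 0.07 in p65 KO cells and 2.84 ± 0.07 in WT cells. Of 11 genes for the IκB kinase subunits and the IκB degradation machinery, at most 1 passed against untreated cells at either time in any line, a count too close to the shares of all genes to be read as a result about the list. Those were Cdc34 in IKK2 KO cells (-0.18 ± 0.06, edgeR adjusted p = 0.034), Skp1a in p65 KO cells (0.11 ± 0.03, adjusted p = 0.028) and Ube2d3 in WT cells (0.11 ± 0.03, adjusted p = 0.0015), each at 45 min, and Skp1a in p65 KO cells again at 90 min (0.10 ± 0.03, adjusted p = 0.025). DESeq2 did not call Cdc34 (adjusted p = 0.17) or Skp1a (adjusted p = 0.18 at 45 min).

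Of 14 other brakes on NF-κB that were tested, 1 rose and 2 fell at 45 min in IKK2 KO cells, 1 rose in p65 KO cells and 5 rose in WT cells. Of all genes, 3.33% rose and 5.43% fell in IKK2 KO cells, 1.17% rose in p65 KO cells and 5.73% rose in WT cells. The medians of the list were 0.02, 0.03 and 0.03, beside 0.00, 0.00 and 0.01 over all genes. Those that fell in IKK2 KO cells were Cyld (-0.20 ± 0.04) and Traf3 (-0.21 ± 0.04), and 2 of 14 are too few to be read as a result about the list. From 45 to 90 min Traf3 rose in IKK2 KO cells (0.61 ± 0.04). Tnfaip3, which encodes the ubiquitin-editing enzyme A20, rose in all 3 lines, by 2.10 ± 0.04 in IKK2 KO, 0.65 ± 0.07 in p65 KO and 5.99 ± 0.05 in WT cells. Between the TNF times it fell in IKK2 KO cells (-1.55 ± 0.04) and in WT cells (-3.52 ± 0.03), and its value in p65 KO cells was 0.12 ± 0.07 (adjusted p = 0.46). Tnip1, encoding a partner of A20, rose by 1.36 ± 0.07 in WT cells at 45 min, with values of 0.12 ± 0.08 in IKK2 KO cells (adjusted p = 0.47) and -0.02 ± 0.07 in p65 KO cells (edgeR adjusted p = 0.95). Of 15 genes of the TNF receptor complex, 1 rose at 45 min in IKK2 KO cells, 0 in p65 KO cells by edgeR (3 at an unadjusted p under 0.05, 0 by DESeq2) and 3 in WT cells, against the same shares of all genes that rose. The gene in IKK2 KO cells was Tnfrsf1b, a TNF receptor (0.32 ± 0.09, edgeR adjusted p = 0.021), which DESeq2 did not call, and 1 of 15 is near the share of all genes. The medians were 0.08, -0.02 and 0.04. Among these Birc3, which encodes the ubiquitin ligase cIAP2, rose by 2.55 ± 0.14 in WT cells.

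Likeness of pattern was described as Pearson's r of mean log2 CPM over the 9 groups, which share lines and times and so are not independent. Differences in level between the lines enter r as well as changes with TNF, so a high r need not be a shared response. Among the members, r was 0.93 for Nfkbib with Bcl3, 0.91 for Nfkbib with Nfkbie, 0.80 for Nfkbia with Nfkbiz and -0.07 for Nfkbiz with Bcl3. Of 11252 eligible genes, the 3 most like Nfkbia were Clec2d (r = 0.956), Tnfaip3 (r = 0.950) and Irf1 (r = 0.941). For Nfkbiz they were Sesn2 (r = 0.962), the immediate-early gene Egr1 (r = 0.950) and Zfp217 (r = 0.946). For Nfkbib they were Zswim4 (r = 0.972), Abcb1b (r = 0.966) and C9orf72 (r = 0.942), and for Nfkbie Rfx5 (r = 0.962), Uap1 (r = 0.936) and Zswim4 (r = 0.931). For Nfkbid, whose pattern is mostly its absence from the knock-outs, they were Pigv (r = 0.993), Ikbke (r = 0.987) and Rnf14 (r = 0.985), and for Bcl3 H2-K1 (r = 0.977), Plat (r = 0.973) and Tgfb1 (r = 0.967).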

How the data were processed

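RNA was measured in 18 paired-end libraries of total RNA (NEBNext Ultra II Directional, NextSeq, per the labels' protocols). The deposited table gives expected counts for 55536 genes; 31.8% of its non-zero values are fractional. The submitters' processing notes name build GRCm38, the aligner HISAT2, the counter featureCounts from Subread 1.6.2, and also Trimmomatic, FastQC 0.11.8 and edgeR 3.26.4. Not given in the sources used here are the annotation release, the strand setting and how multi-mapping reads were counted. Positions and exon lengths came from GENCODE M21, where all 55536 IDs were found.

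Counts were rounded, filtered with filterByExpr (16322 genes kept, 0.0601% of counts lost) and scaled by TMM. All 18 libraries were fitted together in R 4.3.3 with edgeR 4.0.16 (robust quasi-likelihood F-test), giving each group its own coefficient and leaving 9 residual degrees of freedom. P-values of each of the 18 contrasts were adjusted by Benjamini-Hochberg, with 0.05 as the threshold. The biological coefficient of variation was 1.93%. A standard error is the log2 change divided by the square root of F. CPM and RPKM used unrounded counts and TMM-scaled library sizes. The code was also run on simulated counts drawn with the dispersions of the same fit. Changes were planted only in genes above a set level in untreated WT cells, which left out Nfkbie, Nfkbid and Bcl3. That run therefore says nothing about the calls of these members. Alternatives were RLE size factors, no filter, only the groups compared, DESeq2 1.42.0, the longest transcript as length, and each library left out in turn. Those for the list genes were chosen after seeing the data.

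Columns name a group and end in a library code that no label holds, so libraries are called a and b. All 6 members were named in every comparison; for each list the largest 2 called changes, or those a sentence needed, were named, and like genes were the 3 with the highest r among those with at least 2 CPM in a group. The members and lists were chosen with earlier results of these data known. Of 12 genes on the IκB kinase list 11 were in the table, and of 15 other brakes 14 passed the filter. Figures were drawn with matplotlib 3.10.9 in Python 3.11.15.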

Additional observations from a re-analysis of the deposited data

Results flagged for a closer look

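Every result here is a difference of TNF responses between lines that passed edgeR's test of that difference; the differences from WT share the WT libraries. At 45 min the log2 response in IKK2 KO minus WT was -2.44 for Nfkbia, -0.85 for Nfkbib, -3.33 for Nfkbie, -0.39 for Nfkbiz and -3.55 for Bcl3. In p65 KO minus WT it was -3.88 for Nfkbia, -0.82 for Nfkbib, -3.97 for Nfkbie, -1.39 for Nfkbiz and -3.74 for Bcl3. In IKK2 KO minus p65 KO it was 1.45 for Nfkbia and 1.0 for Nfkbiz. The Nfkbiz difference between IKK2 KO and WT was not called by DESeq2 (adjusted p = 0.15). That edgeR call and the one of Bcl3 in the same contrast were each lost in some fits with 1 library left out.

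At 90 min the response in IKK2 KO minus WT was -2.03 for Nfkbia (SE 0.07, adjusted p = 5.6e-24), -0.85 for Nfkbib (SE 0.14, adjusted p = 0.00011), -2.57 for Nfkbie and -3.45 for Bcl3 (SE 0.94, adjusted p = 0.038). In p65 KO minus WT it was -1.90 for Nfkbia (SE 0.07, adjusted p = 1.6e-23), -0.97 for Nfkbib (SE 0.12, adjusted p = 5.3e-08), -3.47 for Nfkbie and -2.93 for Bcl3 (SE 0.26, adjusted p = 8.8e-12). The Bcl3 level itself in p65 KO cells at 90 min was 122% of that in WT cells. The Bcl3 values of IKK2 KO rest on 2 to 4 counts per library, and the 90 min call against WT was lost when any of 6 single libraries was left out (adjusted p = 0.053 to 0.45).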

How the results depend on the processing

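No paired analysis was possible because the columns carry no replicate number that the labels share. The 6 calls in WT at 45 min held under every alternative run. DESeq2 called 3 members between 90 and 45 min in WT instead of 5, and 5 instead of 6 at 90 min in WT. It called 3 instead of 4 at 90 min in p65 KO, where the member that dropped out was given no adjusted p by DESeq2. It called 4 instead of 5 for the 45 min response of IKK2 KO against WT. Over all genes it called 0.391 to 0.599 times as many as edgeR in 15 of 18 contrasts. With only the groups compared, p65 KO at 45 min gave 533 genes instead of 271. With 1 library left out, the members called ranged over 3 to 5 between the TNF times in WT, 1 to 4 at 90 min and 0 to 1 between the TNF times in p65 KO, 3 to 5 for the 45 min and 3 to 4 for the 90 min response of IKK2 KO against WT, and 0 to 1 for the 90 min response of IKK2 KO against p65 KO.

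Changes of sign came only in values that had not passed. With 1 library left out, Bcl3 ranged from -0.09 to 0.09 at 45 min in p65 KO. In IKK2 KO it ranged from -0.31 to 0.54 at 45 min, -0.48 to 0.20 at 90 min and -0.68 to 0.15 between them. Nfkbiz at 90 min in IKK2 KO ranged from -0.01 to 0.34, untreated Nfkbie in IKK2 KO against WT from -0.44 to 0.07, and the 90 min response of Nfkbiz in p65 KO against WT from -0.07 to 0.04. The 45 min response of IKK2 KO against p65 KO ranged from -0.08 to 0.05 for Nfkbib and from -0.31 to 0.55 for Bcl3.

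Bcl3 at 90 min in p65 KO also lost its call with RLE size factors (adjusted p = 0.052) and without the filter (adjusted p = 0.088), and Nfkbid at 90 min in WT with RLE size factors (adjusted p = 0.054). The 90 min response of Bcl3 in IKK2 KO against WT lost its call without the filter (adjusted p = 0.056). By the longest transcript, the highest levels were 236 RPKM for Nfkbia, 9.37 for Nfkbib, 14.0 for Nfkbiz, 2.49 for Nfkbid and 4.12 for Bcl3, and the Nfkbia share of the classical sum was 86.2% and 87.8% in IKK2 KO at 0 and 90 min, 71.9% in untreated p65 KO and 78.8% in WT at 90 min. The cause of these changes was not tested. Counts of 2 to 4 limit Bcl3 in IKK2 KO, and a count of 0 limits Nfkbid in both knock-outs.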
